A study of Mus musculus with 6 samples.

Results

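Trimethylation of histone H3 at lysine 4 (H3K4me3) was mapped in mouse embryonic fibroblasts after exposure to the chemical combination 6TCF, and the resulting peak list was set beside that of untreated cells. Members are the peaks of both H3K4me3 lists (build mm9) that lie outside the mitochondrial genome and overlap no peak of either input list. They number 35049, of 35353 in the H3K4me3 lists and 38760 in all 6 lists of the series. Of these, 18032 came from treated and 17017 from untreated cells. The fibroblasts were of strain C57BL/6 and were labelled as sampled on day 6 in both conditions. Per the labels' protocols, each embryo's cells were plated on a dish of their own, and the medium given after seeding held serum and basic fibroblast growth factor. How many embryos entered a library is not stated. Each condition gave 1 H3K4me3 library and 1 input library, input being sheared chromatin taken before precipitation. No difference between the conditions therefore has a replicate check, no p-value is given, and intervals cover counting error only. By title and extraction protocol these are H3K4me3 libraries, whereas the antibody field gives H3K4me2, a mark that also covers enhancers. The title is followed here, and which antibody was used is not settled.

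H3K4me3 is laid down by SET1 and MLL complexes around the start sites of active genes, and CpG-rich promoters attract these complexes through CXXC-domain proteins. At most promoters the mark forms a narrow domain that flanks the start site, whereas genes that define a cell's identity often carry domains that reach far into the gene body. Developmental genes that a cell does not use can carry the mark together with Polycomb's H3K27me3, a state called bivalent. A peak list records where a domain was called and how wide it was, not how much mark each cell carried. In such bulk samples a domain present in fewer cells and a weaker domain in every cell cannot be told apart.

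The lists carry no gene names, so peaks were named from 105 developmental, matrix, signalling and reference genes in 13 lists, whose mm9 start sites were recalled from memory and not read from an annotation. Many were recalled in a later build and moved by a remembered regional offset, so a locus name is an assignment with some uncertainty and no position of a start site is given. All 105 symbols were on the recalled chromosome in the RefSeq gene table, which is of another build. All 86 pairs of neighbouring loci stood in the same order there, and the strand matched at all 68 loci that have a RefSeq promoter entry. A peak was assigned to a locus when it came within 2 kb of the recalled start. At 82 of the 89 loci with a listed peak, the recalled start lay inside a peak. These checks do not fix a start site to the base. For 7 of the genes (Hmga2, Twist1, Spry2, Emx2, Ccn1, Grhl2 and Cdh1) a peak at that position was already known to differ when the gene was listed, so counts of loci are also given without them. Exon, intron and UTR positions in mm9 were not used here.

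The labelled cell type was checked against marker genes. Of 13 fibroblast markers, 11 had a treated and 9 an untreated peak, and 1, the limb homeobox gene Prrx1, had none in either list. Twist1 (8939 bp), Vim (6708 bp) and Fn1 (4743 bp) were listed in treated cells only, and Pdgfra (7028 bp) in untreated cells only. No listed peak does not mean no mark. A partner wider than any listed peak may be missing, which was not tested. Of 5 epithelial markers, 5 had a treated and 4 an untreated peak. The counts were 4 and 2 of 4 neural markers, 1 and 0 of 3 muscle markers, 1 and 1 of 3 pluripotency markers, 2 and 2 of 3 endoderm markers, and 1 and 1 of 2 blood or endothelial markers. Fibroblasts can carry the mark at silent CpG-rich promoters, so these counts do not measure other cell types in the culture. Their part in the results was not tested.

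The upstream promoter stretches of 6 genes are shown because their domains differed between the lists and their CG content spans a wide range: Msx1, whose domain was wider after treatment; Olig2 and Pax7, listed in treated cells only; Hmga2, listed in untreated cells only; and Acta2 and Postn, whose domains were narrower after treatment. They were picked as examples after their values were seen. Each is the 250 bases before the start site from RefSeq, 5′ to 3′ on the gene's strand. Its position is in GRCm38.p6 and not in the build of the peaks. CG dinucleotides are in capitals.
Msx1 (GRCm38.p6, chr5:37824586-37824835, minus strand): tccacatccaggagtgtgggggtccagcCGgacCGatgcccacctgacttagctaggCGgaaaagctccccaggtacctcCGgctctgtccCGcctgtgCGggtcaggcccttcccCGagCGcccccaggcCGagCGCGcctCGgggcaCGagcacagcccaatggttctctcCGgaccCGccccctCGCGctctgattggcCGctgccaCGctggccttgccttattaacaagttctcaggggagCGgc
Olig2 (GRCm38.p6, chr16:91225300-91225549, plus strand): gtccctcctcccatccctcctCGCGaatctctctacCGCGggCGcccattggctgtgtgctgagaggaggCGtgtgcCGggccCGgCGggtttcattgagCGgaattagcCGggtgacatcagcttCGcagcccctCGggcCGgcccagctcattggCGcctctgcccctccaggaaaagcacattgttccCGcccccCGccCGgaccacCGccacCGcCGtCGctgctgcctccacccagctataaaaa
Pax7 (GRCm38.p6, chr4:139832969-139833218, minus strand): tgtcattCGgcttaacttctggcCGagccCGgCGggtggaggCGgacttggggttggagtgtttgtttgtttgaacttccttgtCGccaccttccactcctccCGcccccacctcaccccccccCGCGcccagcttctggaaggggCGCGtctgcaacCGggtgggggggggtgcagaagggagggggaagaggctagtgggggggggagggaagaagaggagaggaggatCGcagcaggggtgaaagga
Hmga2 (GRCm38.p6, chr10:120476470-120476719, minus strand): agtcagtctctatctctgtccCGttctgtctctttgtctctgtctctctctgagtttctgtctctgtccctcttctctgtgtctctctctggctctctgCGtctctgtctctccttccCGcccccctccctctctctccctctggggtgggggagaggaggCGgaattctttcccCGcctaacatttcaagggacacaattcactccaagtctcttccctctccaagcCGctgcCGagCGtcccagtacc
Acta2 (GRCm38.p6, chr19:34255374-34255623, minus strand): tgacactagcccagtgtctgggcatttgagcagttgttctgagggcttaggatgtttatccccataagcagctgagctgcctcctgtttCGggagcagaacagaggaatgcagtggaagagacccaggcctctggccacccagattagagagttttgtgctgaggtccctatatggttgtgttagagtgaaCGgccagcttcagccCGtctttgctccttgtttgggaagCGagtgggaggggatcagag
Postn (GRCm38.p6, chr3:54360857-54361106, plus strand): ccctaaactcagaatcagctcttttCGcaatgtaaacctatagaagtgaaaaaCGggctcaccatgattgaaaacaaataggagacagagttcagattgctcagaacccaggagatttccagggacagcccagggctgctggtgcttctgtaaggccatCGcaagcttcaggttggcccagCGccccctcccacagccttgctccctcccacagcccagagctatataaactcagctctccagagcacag
Counted over the 300 bases of the RefSeq entry, which end 50 bases after the start, Msx1 had 29 CG dinucleotides, Olig2 25, Pax7 17, Hmga2 12, Acta2 6 and Postn 5. As many as in Msx1 were found in 14.3% of 27025 genes, and as many as in Postn in 63.5%. The median over all these genes was 8, and 45.8% had at least 10. The motif searched was CG, which reads the same on both strands.

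The lists differed little in where H3K4me3 was found. Of the treated peaks 89.8% and of the untreated peaks 95.3% overlapped a peak of the other list by at least 1 bp, which is called shared here. Treated peaks covered 40.3 Mb and untreated peaks 39.6 Mb, and 35.2 Mb were covered in both. The bases in common made up 87.4% of the treated and 88.8% of the untreated territory. A total of 1841 treated peaks (10.2% of those kept) and 802 untreated peaks (4.71%) were in 1 list only. With the 17017 widest peaks of each list, 1204 were treated-only and 1174 untreated-only, and lists of one length must give like numbers.

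Peaks in 1 list only were narrow, and few lay next to a peak of the other list. Their median width was 865 bp in treated cells (central 50% of peaks, 708 to 1060 bp) and 836 bp in untreated cells (677 to 1120 bp). Shared peaks had medians of 2154 and 2176 bp. The nearest peak of the other list was a median of 27.7 kb away for treated-only and 29.4 kb for untreated-only peaks. Within 1 kb of a peak of the other list lay 40 of the 1841 treated-only peaks (2.17%) and 27 of the 802 untreated-only peaks (3.37%). More than 50 kb away lay 35.0% and 36.5%.

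The share of peaks in 1 list only depended on width in both lists. Up to 1 kb, 51.6% of treated peaks (95% Wilson interval 49.6 to 53.6) and 23.8% of untreated peaks (22.1 to 25.6) were unshared. Between 5 and 6 kb the shares were 0.571% (2 of 350) and 0.728% (3 of 412). Over 6 kb they were 5.70% (13 of 228; 3.36 to 9.51) and 5.78% (16 of 277; 3.59 to 9.18), in both lists above the class before. The treated list ended at a width of 9030 bp and the untreated list at 9151 bp, and numbers thinned from 139 and 170 peaks of 6 to 7 kb to 2 and 4 over 9 kb. A wide domain in 1 list only may thus have had a partner wider than any listed peak, and this was not tested. The widest treated-only peak with no locus of the lists was at chr5:22935561-22944567 (9007 bp). The widest such untreated-only peaks were at chr18:69503035-69511986 (8952 bp), chr9:81520853-81529578 (8726 bp) and chr13:63340366-63349071 (8706 bp).

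**Figure D1:**
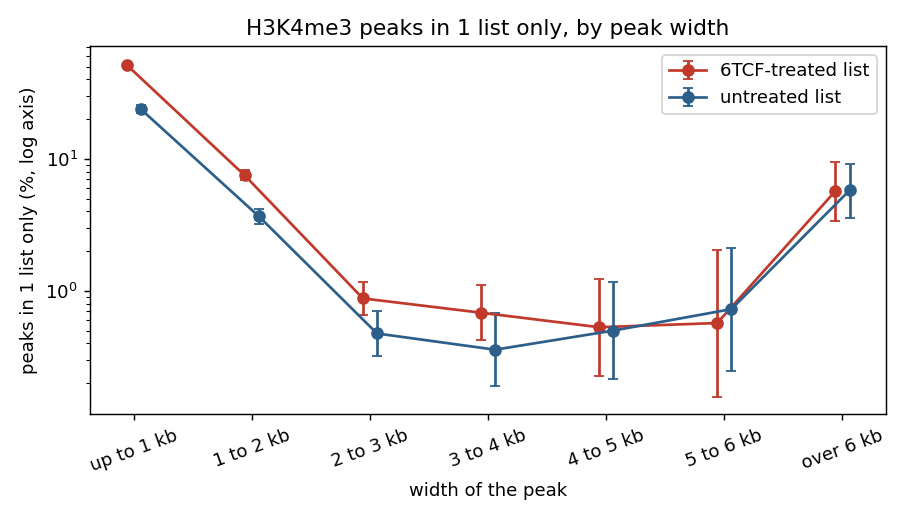
Percentage of H3K4me3 peaks found in 1 list only (log axis) against peak width class, for the 6TCF-treated list (red) and the untreated list (blue), with 95% Wilson intervals for counting error. Both lines drop from 51.6% and 23.8% at up to 1 kb to below 1% between 2 and 6 kb, and stand at 5.70% and 5.78% over 6 kb.

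Across chromosomes 1 to 19 and X, the treated-only share ran from 6.63% on chromosome X to 12.8% on chromosome 18. The untreated-only share ran from 3.21% on chromosome 19 to 7.63% on chromosome 18. The median log2 width ratio of pairs, described next, stayed between -0.06 on chromosome X and 0.00149 on chromosome 19.

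Domain width was compared in 16014 pairs, each made of 1 treated and 1 untreated peak that overlap each other and no further peak. Their log2 width ratio, treated over untreated, had a median of -0.02 and an SD of 0.33, and the treated peak was the wider one in 46.7%. At least 1.5-fold wider in treated cells were 800 pairs (5.0%), and at least 1.5-fold wider in untreated cells were 411 (2.57%). At 2-fold the numbers were 179 (1.12%) and 83 (0.518%). Pairs past 1.5-fold on the treated side were narrow in untreated cells, with a median of 1136 bp there and 2178 bp treated. Those on the untreated side were wide there, with a median of 3117 bp untreated and 1726 bp treated. Both contrasts are partly built in, as the pairs were chosen by their width ratio. The 2 sets also differed in shape. In 70.8% of the pairs wider in untreated cells, 1 edge gave at least 80% of the net difference, against 52.3% of those wider in treated cells. With no locus of the lists, large ratios towards treated cells were found at chr9:62991756-62995187 (3432 and 583 bp, 5.89-fold), chr4:82692840-82698811 (5972 and 1023 bp) and chr12:59366667-59370645 (3979 and 769 bp). Towards untreated cells they were found at chr1:10707103-10710602 (768 bp treated, 3500 bp untreated, 4.56-fold), chr19:36190582-36194636, chr7:133766654-133769280 and chr1:137220836-137224354.

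Width itself moved with the ratio. Among pairs with a mean width of up to 1 kb the median log2 ratio was 0.14 and 12.7% were at least 1.5-fold wider in treated cells. Among pairs of 1 to 2 kb the median was 0.05, and in each class from 2 kb upward it was between -0.07 and -0.05. At 4 to 5 kb, 3.55% were at least 1.5-fold wider in treated and 4.73% in untreated cells. These shares are the background for the loci below. Joined domains were rare: 77 treated peaks spanned 2 untreated peaks, and 53 untreated peaks spanned 2 treated ones.

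**Figure D2:**
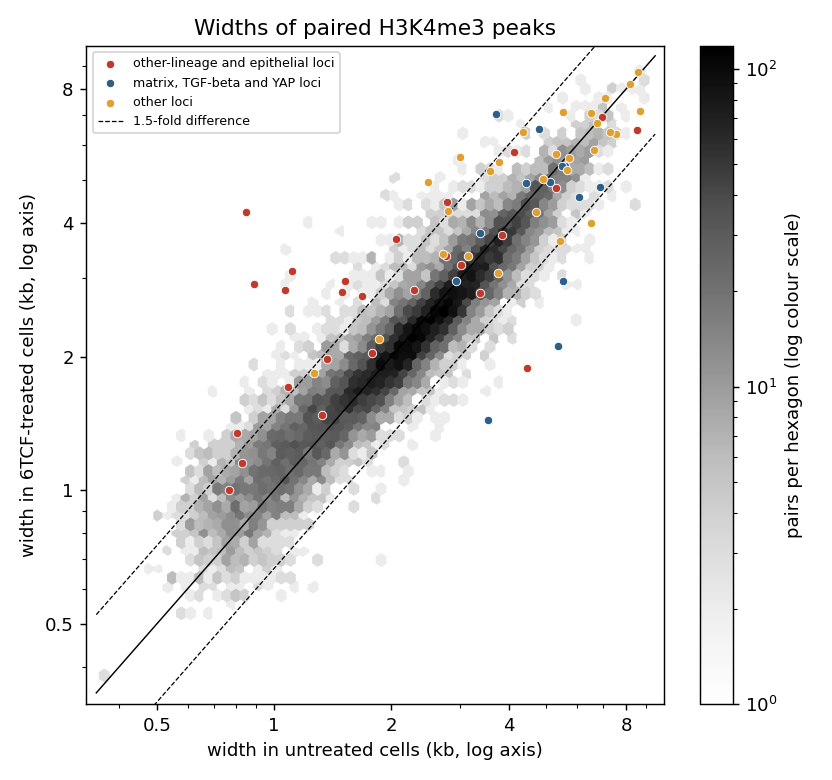
Width of each paired H3K4me3 peak in 6TCF-treated cells against untreated cells, in kb on log axes. Grey hexagons hold all 16014 pairs, coloured points are the 67 pairs at named loci, the solid line marks equal width and the dashed lines a 1.5-fold difference. Most pairs hug the line of equal width, 15 named loci lie above the upper dashed line and 5 below the lower one.

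At the 105 named loci, 67 had a shared domain, 17 a treated-only peak, 5 an untreated-only peak and 16 no listed peak. Of the 84 loci with a treated peak 20.2% were treated-only, and of the 72 with an untreated peak 6.94% were untreated-only. Over all peaks the shares were 10.2% and 4.71%. These are not like for like, as a locus counts as shared when any peak in its window is shared. Widths are not matched either. Of the 1841 treated-only peaks 1283 were up to 1 kb wide, whereas 7 of the 17 treated-only loci had a peak over 5 kb. Without the 7 genes known before, 13 of 78 (16.7%) and 4 of 69 (5.80%) were in 1 list only. The loci were chosen with earlier results of these lists known, so these shares describe the loci and test nothing. Of the 67 loci with a pair, 15 (22.4%, beside 5.0% of all pairs) were at least 1.5-fold wider in treated cells and 5 (7.46%, beside 2.57%) in untreated cells. Without the 7 genes it was 13 of 65 and 5 of 65 (7.69%). The narrower classes held most of the widened loci: 6 of 10 loci with a mean width of 1 to 2 kb were past 1.5-fold on the treated side, beside 5.66% of all pairs of that class. Among loci of 3 to 4 kb it was 3 of 12, beside 3.97%.

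**Figure D3:**
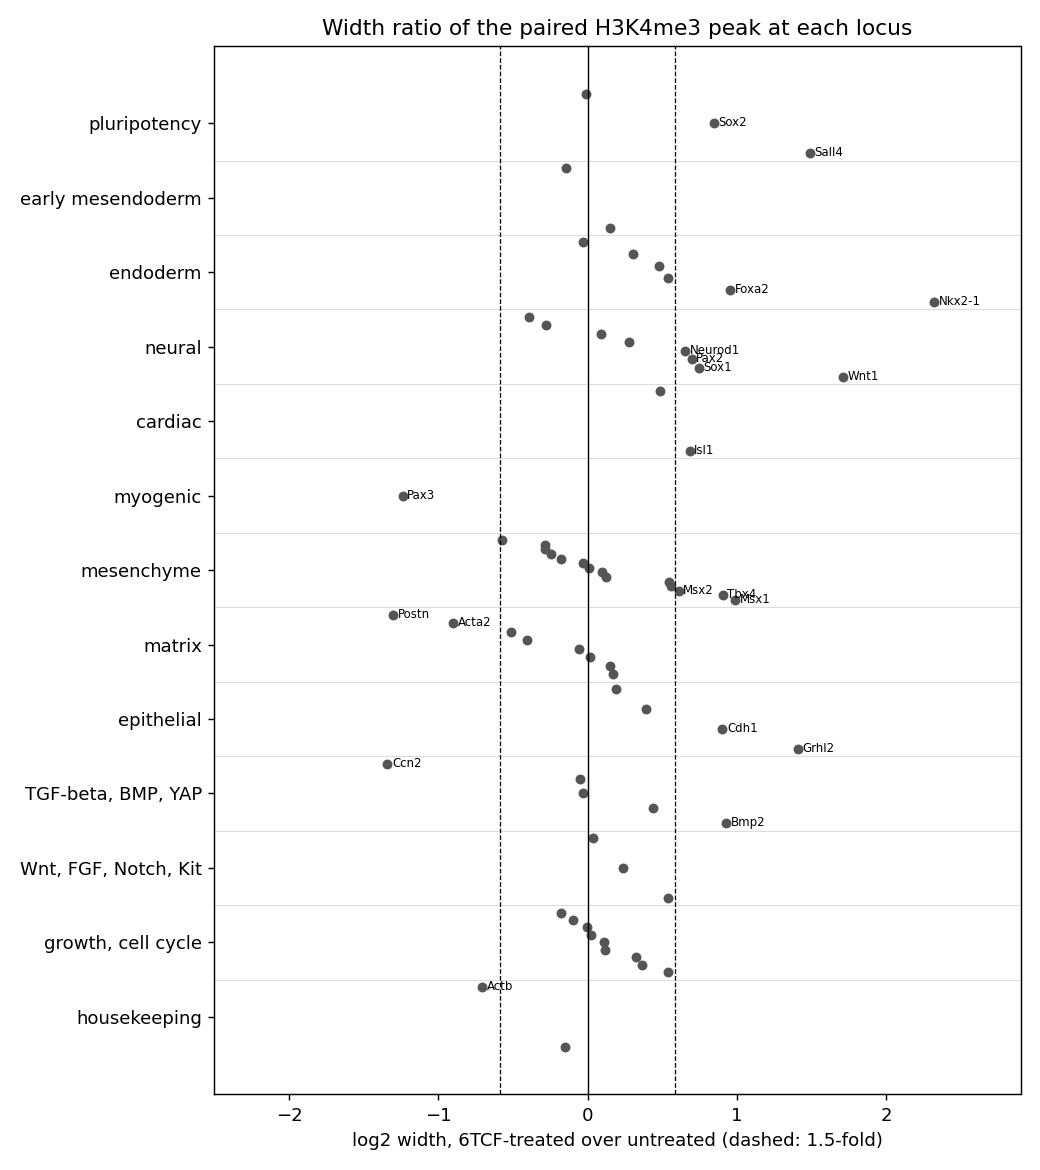
Log2 ratio of treated to untreated width of the paired H3K4me3 peak at each of 67 loci, grouped by gene list. Dashed lines mark a 1.5-fold difference and loci past them are named. Nkx2-1 of the endoderm list, Wnt1 of the neural list and Sall4 of the pluripotency list lie furthest to the right, and the furthest to the left is Ccn2 at -1.34.

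Loci of the lists for lineages other than the fibroblast's own leaned towards wider domains in treated cells. The grouping of lists that follows was made after their values were seen. Some genes in these lists, such as Hes1 and Klf4, are also used by fibroblasts. The pluripotency, early mesendoderm, endoderm, neural, cardiac, myogenic and epithelial lists together held 49 loci, of which 26 had a pair. In treated cells 20 of the 26 were wider, 11 of them (42.3%) at least 1.5-fold, and the median log2 ratio was 0.48. Over all pairs 46.7% were wider in treated cells, 5.0% at least 1.5-fold, and the median was -0.02. The narrowest pairs leaned to treated cells too, with medians of 0.14 up to 1 kb and 0.05 at 1 to 2 kb. How much of the lean goes with width was not tested for these lists. Of the 26, only Pax3 was at least 1.5-fold wider in untreated cells, beside 2.57% of all pairs. A further 9 of the 49 had a treated-only peak, 1 an untreated-only peak and 13 no listed peak, among them T, a factor of early mesoderm. The 9 made up 25.7% of the 35 loci with a treated peak, beside 10.2% of all treated peaks. Without the known genes 18 of 24 pairs were wider in treated cells, and the median was 0.43. In the mesenchyme and matrix lists the median over 22 pairs was -0.01, with 3 loci past 1.5-fold on the treated and 2 on the untreated side. In the signalling, growth and housekeeping lists it was 0.03 over 19 pairs, with 1 and 2.

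The largest ratio of the named loci was at an endoderm regulator. Nkx2-1, a homeobox factor of lung, thyroid and forebrain, had 4224 bp treated and 846 bp untreated (4.99-fold), with 1592 bp more upstream and 1786 bp more downstream. It is among the 5 largest ratios of all 16014 pairs on the treated side.

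The other endoderm loci differed less. The pioneer factor Foxa2 had 2954 bp treated and 1524 bp untreated (1.94-fold). Gata4, Sox17 and Foxa1 were wider in treated cells by 1.45-, 1.39- and 1.24-fold, below the 1.5-fold limit. Cebpa, a factor of liver and fat, had 3763 and 3841 bp and thus nearly equal widths. Neither list had a peak at Pdx1 and Cdx2, regulators of pancreas and intestine, nor at the liver genes Alb and Afp. Gata6 had an untreated peak of 6072 bp and the nearest treated peak 183 kb away, in the width range where unshared peaks are more frequent.

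Neural loci were the list with the most treated-only peaks, 5 of 13. Over all treated peaks the share was 10.2%, and over all named loci with a treated peak it was 20.2%. Lists differ in length, and the ranking was not adjusted for it. The bHLH factor Olig2, which specifies oligodendrocytes and motor neurons, had a treated peak of 1481 bp, and the nearest untreated peak was 54.3 kb away. Foxd3, a forkhead factor of neural crest, had 2915 bp, with an untreated peak 1.5 kb off. The eye and forebrain factor Pax6 had 1334 bp and the neural crest factor Sox10 839 bp, neither of which covered the recalled start. The fifth was Emx2, with a treated peak of 8691 bp and an untreated peak 3.8 kb off. Emx2 is among the genes known before, and its peak is in the width range where unshared peaks are more frequent.

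Among neural loci with a pair, 4 of 8 were at least 1.5-fold wider in treated cells, beside 5.0% of all pairs. Over all pairs of 1 to 2 kb the share was 5.66%, and at 2 to 3 kb 3.19%. Wnt1, a ligand of the midbrain, had 2913 bp treated and 888 bp untreated (3.28-fold), and 1853 bp of the gain lay downstream. Sox1 (1346 and 804 bp), Pax2 (2732 and 1684 bp) and Neurod1 (1706 and 1085 bp) followed at 1.67-, 1.62- and 1.57-fold. At Sox1, Neurod1 and Wnt1 the window held 1 further peak in the treated list only. Hes1, the Notch-induced repressor that fibroblasts also use, went the other way with 6483 bp treated and 8511 bp untreated, and so did the intermediate filament gene Nes with 2779 and 3367 bp.

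Epithelial loci were all wider or listed only in treated cells. Over all pairs 46.7% were wider in treated cells. The only 2 of these loci past 1.5-fold, Grhl2 and Cdh1, are among the genes listed with a peak already known to differ. Their widths are therefore no independent result. Grhl2, a grainyhead factor that maintains epithelia, had 2829 bp treated (chr15:37161897-37164725) and 1066 bp untreated (2.65-fold), with 1551 bp more downstream. Cdh1, which encodes E-cadherin, had 2801 and 1498 bp (1.87-fold), and there 1232 bp of the difference lay upstream. Krt18 and Epcam were 1.31- and 1.14-fold wider. Krt8 had a treated-only peak of 880 bp that did not cover the recalled start. H3K27me3 peaks were listed at 3 of these loci in untreated cells: Grhl2 (1438 bp), Cdh1 (926 bp) and Epcam (475 bp). In treated cells they were listed at Cdh1 (1832 bp) and Epcam (542 bp). The antibody field gives H3K4me1 for the libraries titled H3K27me3. Where a locus had several such peaks the widest is given. Over all lists an untreated H3K27me3 peak lay at 4 loci with a pair, and all 4 were wider in treated cells (median log2 ratio 0.55, against 0.11 at the other 63). Wider pairs at H3K27me3 peaks were already known from these lists, so this is no independent support.

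Pluripotency, cardiac and myogenic loci were mixed. Sall4, a zinc finger factor of pluripotent cells, had 3113 bp treated and 1109 bp untreated (2.81-fold), and Sox2 had 3686 and 2052 bp (1.80-fold). Nanog, Pou5f1 and Esrrb had no peak in either list. Klf4, which fibroblasts express, had 6910 and 6952 bp. Lin28a had a treated-only peak of 601 bp that did not cover the recalled start.

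Isl1, a factor of heart progenitors and motor neurons, had 4453 bp treated and 2774 bp untreated (1.60-fold), and Hand2 had 5775 and 4131 bp, within 1.5-fold. Tbx5, a factor of heart and forelimb, had a treated-only peak of 3199 bp that did not cover the recalled start, and the nearest untreated peak was 144 kb away. Hand1 and Gata2 had none, and at Nkx2-5 the only peak was dropped by the input filter. Pax7, the muscle stem cell factor, had a treated-only peak of 1039 bp, with the nearest untreated peak 208 kb away. Pax3 had 1887 bp treated and 4458 bp untreated, 2.36-fold narrower after treatment, and its downstream edge drew back by 2579 bp while its upstream edge reached 8 bp further. Myod1 and Myf5, the myogenic bHLH factors, had no peak in either list.

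Of 14 mesenchymal transcription factors with a pair, 8 were wider in treated cells, beside 46.7% of all pairs. Of the 14, 3 were at least 1.5-fold wider, beside 5.0% of all pairs. None was at least 1.5-fold narrower, beside 2.57% of all pairs, so none among 14 is near that share. Msx1, a homeobox factor of limb and face mesenchyme, had 4931 bp treated and 2482 bp untreated (1.99-fold). Tbx4 had 5634 and 3007 bp (1.87-fold) and Msx2 4253 and 2788 bp (1.52-fold). In these 3 the upstream edges differed by 86 to 148 bp, and the gain lay downstream, by 1317 to 2541 bp. Six2 and Snai1 were 1.46- and 1.47-fold wider, below the limit.

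Zeb1, a repressor of epithelial genes, had 3644 bp treated and 5418 bp untreated, short of the 1.5-fold limit, and Foxc1, Foxc2, Foxf1 and Sox9 were narrower by smaller amounts. Tbx3 and Irx3 had nearly equal widths. Twist1, a bHLH factor of mesenchyme, had a treated-only peak of 8939 bp with an untreated peak 1.9 kb off. Wt1 had a treated-only peak of 4874 bp. Tbx2 had an untreated-only peak of 7458 bp.

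Of the 5 loci with domains at least 1.5-fold narrower after treatment, 3 were matrix or TGF-beta and YAP genes. They were 2 of the 8 matrix pairs and 1 of the 5 TGF-beta and YAP pairs, beside 2.57% of all pairs. Ccn2, a matricellular gene that responds to TGF-beta and YAP, had 2107 and 5337 bp, 2.53-fold narrower, with 2972 bp lost downstream. Postn, which encodes periostin, had 1436 and 3538 bp (2.46-fold), and Acta2, the smooth muscle actin of myofibroblasts, had 2958 and 5520 bp (1.87-fold).

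Not every matrix or TGF-beta gene followed. Fn1, Vim, Ccn1 and Thbs1 of these lists had a treated-only peak, and Pdgfra an untreated-only one. The type I collagen genes Col1a2 (4809 and 6862 bp) and Col1a1 (4560 and 6044 bp) were narrower in treated cells but within 1.5-fold. Col3a1, Dcn, Mmp2 and Thy1 had log2 ratios between -0.06 and 0.17. The BMP-induced genes Id1 and Id3 had log2 ratios of -0.05 and -0.03. The ligand gene Bmp2 was wider, with 7043 bp treated and 3703 bp untreated (1.90-fold). Actb, the reference gene for cytoplasmic actin, was narrower too, with 3998 and 6522 bp (1.63-fold), whereas Gapdh had 4232 and 4697 bp. The 5 narrowed loci thus held Actb and Pax3 besides matrix and TGF-beta genes. Id2 and the Wnt ligand gene Wnt5a had no peak in either list.

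The narrowed domains differed mainly on the side of the gene body. In the 5 loci at least 1.5-fold wider in untreated cells, which are Ccn2, Postn, Pax3, Acta2 and Actb, the downstream edge differed more than the upstream edge at all 5. The median difference was 2245 bp downstream and 317 bp upstream. In the 15 loci wider in treated cells both edges moved outward at all 15, and the downstream edge moved more at 8 and the upstream edge at the other 7. Their median gain was 884 bp downstream and 437 bp upstream.

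**Figure D4:**
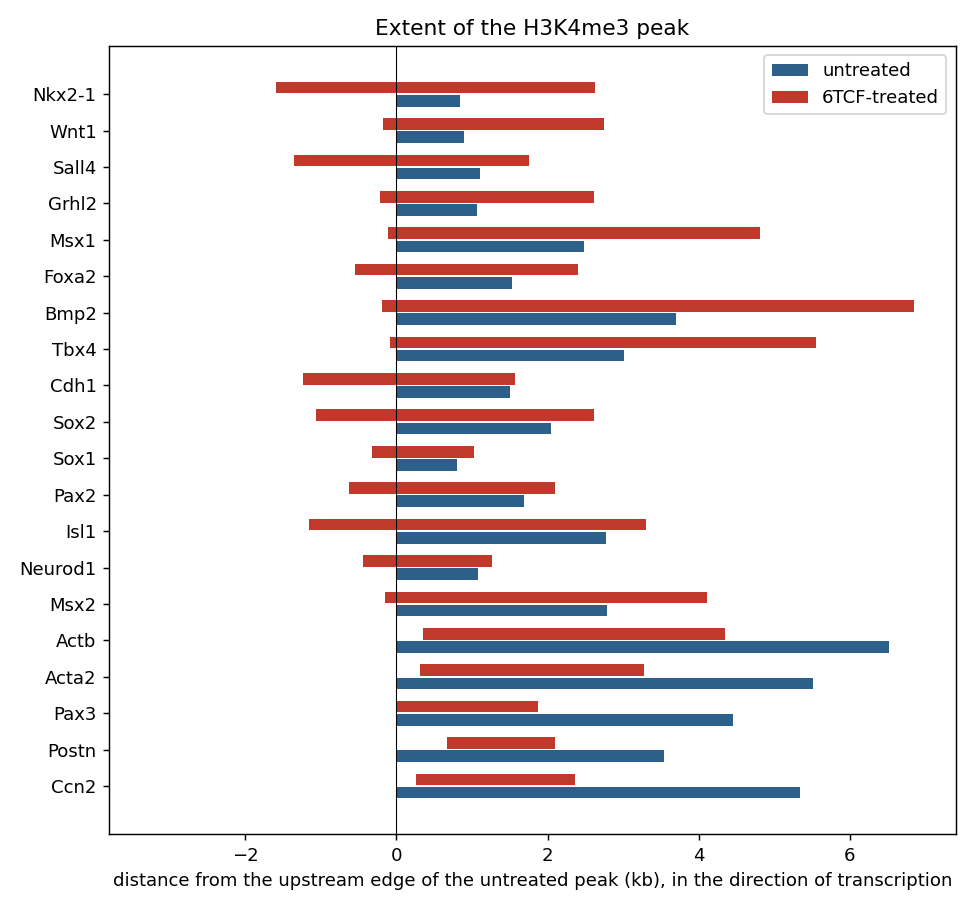
Extent of the H3K4me3 peak in treated (red) and untreated (blue) cells at the 20 loci whose widths differ by at least 1.5-fold, in kb from the upstream edge of the untreated peak and in the direction of transcription. At the lower 5 loci the red bar ends well short of the blue bar on the downstream side, and at the upper 15 it extends past it on both sides.

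Loci with a peak in 1 list only were split at 5 kb after their widths were seen. Of the 17 treated-only loci, 10 had a peak of up to 5 kb and 7 a wider one. The wide ones were Spry2 (9030 bp), Twist1 (8939 bp), Emx2 (8691 bp), Ccn1 (8570 bp), Thbs1 (7830 bp), Vim (6708 bp) and Cdkn1b (5266 bp). Spry2, Twist1, Emx2 and Ccn1 are 4 of the 5 widest treated-only peaks in the whole list. All 4 are among the genes listed with a peak already known to differ, so this ranking is no independent result. Ccn1 is a YAP target, Thbs1 encodes thrombospondin, Vim a mesenchymal intermediate filament and Spry2 a feedback inhibitor of FGF signalling. Fn1, which encodes fibronectin, had a treated-only peak of 4743 bp and the nearest untreated peak was 91.1 kb away.

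Of the 5 untreated-only loci, 4 were over 5 kb wide. Hmga2, a chromatin protein of embryonic cells, had 8986 bp (chr10:119906916-119915901), the widest untreated-only peak, and the nearest treated peak was 72.5 kb away. Hmga2 too is among the genes known before, so its rank is no independent result. Pdgfra, the PDGF receptor of mesenchymal cells, had 7028 bp. Axin2, a target of Wnt signalling, had 3796 bp and was the only one under 5 kb, with a treated peak 8.9 kb off. For the wide loci of both kinds a partner beyond the widest listed peak cannot be told apart from a missing one.

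**Figure D5:**
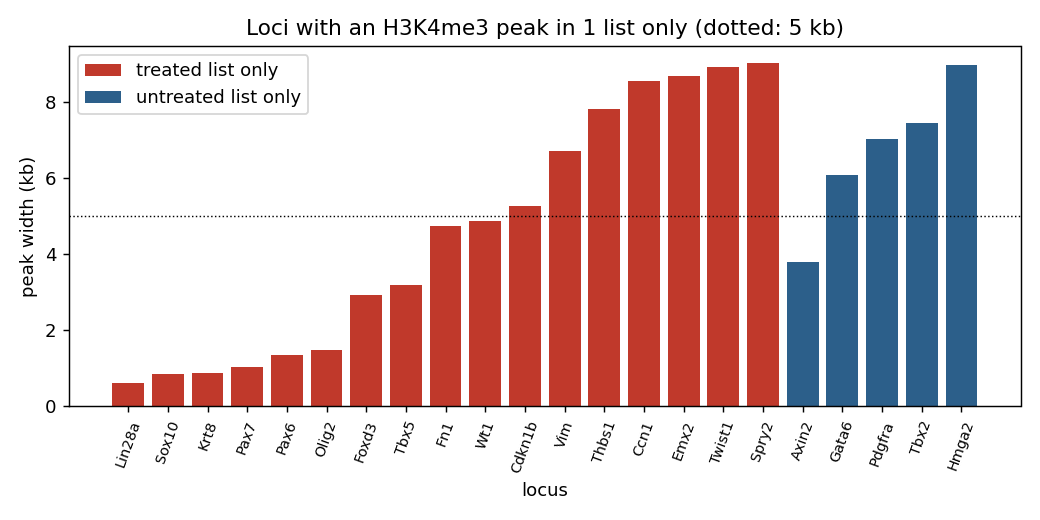
Width in kb of the H3K4me3 peak at the 22 loci where it was listed in treated cells only (red, 17 loci) or in untreated cells only (blue, 5 loci). Treated-only loci range from 601 bp at Lin28a to 9030 bp at Spry2, and untreated-only loci from 3796 bp at Axin2 to 8986 bp at Hmga2. The dotted line marks 5 kb.

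Of the 11 growth and cell cycle genes, Cdkn1b was treated-only and Hmga2 untreated-only, as given above, and 9 had a pair. Of these 9 none passed 1.5-fold in either direction, among them Myc (6405 bp treated, 7260 bp untreated), Ccnd1 (7637 and 7063 bp), Jun (6714 and 6722 bp), Fos (5710 and 5274 bp) and Cdkn1a, the p21 gene (8741 and 8586 bp). Over all pairs 5.0% passed it on the treated and 2.57% on the untreated side, so none of 9 is near those shares. Igf2 and Dlk1, which are imprinted, were 1.29- and 1.45-fold wider in treated cells. Of the Wnt, FGF and Notch genes with a pair, Lef1, the nuclear partner of beta-catenin, was 1.45-fold wider and Jag1 1.02-fold.

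The Hox clusters, which pattern the body axis, differed from one another. In the HoxA cluster 10 treated peaks covered 27.1 kb and 5 untreated peaks 13.8 kb. The untreated ones were all shared and 5 treated ones had no partner, which was known before. Of these 5 the widest were at chr6:52107485-52111598 (4114 bp) and chr6:52160385-52164214 (3830 bp). In HoxC both lists had 13 peaks, all shared, over 38.4 kb in treated and 50.6 kb in untreated cells. HoxB covered 40.3 and 40.8 kb and HoxD 25.6 and 25.9 kb. In HoxB 2 of 12 treated peaks were treated-only, and in HoxD 1 of 13. Over all treated peaks the share was 10.2%, so the counts in these clusters are near it. No cluster had an untreated-only peak, beside 4.71% of all untreated peaks.

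CG content of the promoter was counted for each class of loci. RefSeq promoter entries were found for 68 of the 105 loci. The median number of CG dinucleotides in 300 bases was 20.5 at 40 loci with a shared domain, 22.5 at 12 treated-only loci, 12 at 3 untreated-only loci and 9 at 13 loci with no listed peak, beside 8 over all genes. The central 50% of shared loci (12 to 26.25) and of treated-only loci (15.5 to 26.25) overlapped. The 3 untreated-only loci were Axin2 with 31, Hmga2 with 12 and Pdgfra with 5. The 11 loci at least 1.5-fold wider in treated cells with an entry had a median of 26 and ranged from 8 to 37. Of the 5 loci wider in untreated cells, Acta2 and Postn had an entry, with 6 and 5. The set of loci was not drawn at random from all genes, and these counts are a description.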

How the data were processed

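H3K4me3 ChIP-seq of 6TCF-treated and untreated fibroblasts gave 1 peak list per library, with 1 list for each input. Named in the submitters' processing notes, without role, are MACS 1.4.3, HOMER, Bowtie2 2.2.5, CASAVA 1.7 and build mm9. Calling threshold and control were not given in the sources used here, and depth is unknown. In the deposited lists, each row gives chromosome, start, end and a constant strand sign, so width in bp is the value per peak, which depends on depth and threshold. No score or height was in the files used here. Starts were shifted to 1-based positions.

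Python 3.11.15, numpy 2.4.6, scipy 1.17.1 and pandas 2.3.3 were used. From the treated list 153 peaks were dropped, and from the untreated list 151, of which 4 were mitochondrial and the rest overlapped input. Overlap meant at least 1 bp and a called width difference at least 1.5-fold. Overlap counts and pairing were tested on simulated data. Intervals are 95% Wilson. H3K27me3 peaks free of input overlap were used only to annotate loci. Figures were drawn with matplotlib 3.10.9.

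The members and gene lists were chosen with earlier results of these data known. Locus starts were recalled from memory, many of them from a later build with a remembered offset to mm9, and were checked only for chromosome, order and strand. The rule for named loci took all with a peak in 1 list only or a pair past 1.5-fold and up to 3 more per list; further loci named, the grouping of lists, the 5 kb split and the promoters shown were chosen after values were seen. A few loci first listed are not reported here and were left out of all counts of loci. The promoters of Nanog and Col1a2 were computed too and are not shown. Promoters are from RefSeq, GRCm38.p6; where a gene had several entries the one with the most CG was counted.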

Additional observations from a re-analysis of the deposited data

How the results depend on the processing

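Of 108 alternative values over 14 results and 11 settings, 99 stayed close to the reported value (counts within 1.5-fold, other values within their 95% interval) and 9 moved. Keeping only peaks of at least 1000 bp gave 530 untreated-only peaks, 91.3% of treated and 96.4% of untreated peaks shared, a median log2 width ratio of -0.0309, 475 pairs at least 1.5-fold wider in treated cells and 48 treated peaks that span 2 or more untreated ones. Keeping the same number of widest peaks gave 1204 treated-only peaks, with 92.9% of treated and 93.1% of untreated peaks shared. The counts of named loci stayed within 1.5-fold in every setting run: 13 to 19 treated-only, 4 or 5 untreated-only, and 12 to 18 pairs past 1.5-fold on the treated and 5 on the untreated side. Centring the ratios on their width class, leaving out the 7 genes known before and the counts of pairs at named loci were chosen after seeing the data. Read depth is unknown and limits every presence call: no listed peak does not mean no mark. No paired analysis was possible because each group holds 1 library.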
